A study of Homo sapiens with 16 samples.

Results

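Treated T-cell leukaemia lines were set directly against untreated lines of anaplastic large cell lymphoma (ALCL), across all genes of the array. The members were chosen by label, as the arrays of the T-cell lines after treatment and of the ALCL lines without it, and made up 8 of the 16 arrays in the series. The treated group (n = 4) held the T-cell leukaemia lines CCRF-CEM, Jurkat, Molt-3 and its sister Molt-4. They had spent 6 days in 1 µM 5-aza-2'-deoxycytidine (5-aza-dC), with 625 nM trichostatin A (TSA) present in the final 24 hours. The ALCL group (n = 4) held FE-PD, JB6, SU-DHL-1 and, last, Karpas 299 without either agent. Where values are given for each line of a group without names, they follow these orders. The untreated arrays of the same T-cell lines (n = 4) are given beside them as the starting point. Each line was hybridised once per condition, so p-values measure the spread between lines. FE-PD lacks the ALK fusion, and Molt-3 and Molt-4 were derived from the same patient. Because the groups differ in cell type and in treatment, the 2 cannot be told apart in this comparison. In these bulk samples, fewer cells of a type and less RNA per cell cannot be told apart either.

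ALCL arises from T cells, displays CD30 at the cell surface, makes cytotoxic granule proteins and often lacks parts of the T-cell receptor machinery. T-cell leukaemia lines resemble thymocytes and keep that machinery. 5-aza-dC traps DNA methyltransferases, so that methylation at CpG sites is lost as cells divide, and TSA inhibits histone deacetylases. The series title names the question, whether such treatment gives T-cell lines an ALCL-like phenotype.

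Values are log2 RMA summaries, so a difference of 1 is a 2-fold difference in signal, and the figure after ± beside a difference is its standard error. A gene is called at an adjusted p below 0.05 in limma with Benjamini-Hochberg adjustment over 11963 genes. Of these genes, 2143 (17.9%) were called, 1055 (8.82%) of them higher and 1088 (9.09%) lower in the treated T-cell lines. The counts of called list members given below are to be read beside these shares. The split moved to 48 higher and 2745 lower when arrays were centred on their hybridisation spikes, which put the median of all genes at -0.93 in place of 0.09. The larger differences were mostly on the lower side: 77 genes were called at least 4-fold higher and 179 at least 4-fold lower, and at 16-fold the numbers were 3 and 26. In 3098 genes (25.9%) the 4 and 4 values did not overlap, 1831 of them higher and 1267 lower. Leaving out Molt-3 reduced the calls to 1234, leaving out JB6 reduced them to 1422, and CCRF-CEM and Jurkat alone gave 911. With Molt-3 and Molt-4 averaged into 1 value, 1443 genes were called, 688 higher and 755 lower.

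**Figure D1:**
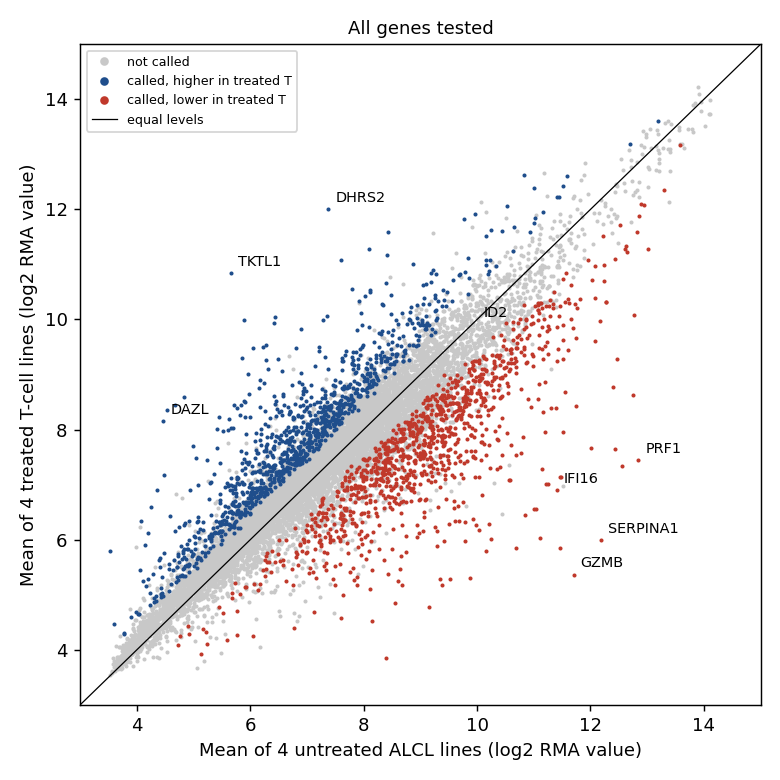
Mean log2 RMA value of the 4 treated T-cell lines (y axis) against the mean of the 4 untreated ALCL lines (x axis), with 1 point per gene. Blue points are the 1055 genes called higher and red points the 1088 called lower in treated T-cell lines; GZMB and SERPINA1 lie farthest below the line of equal levels among the labelled genes.

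The arrays of the 2 groups also differed in measures that no gene list defines. Within-array SD was 1.64 ± 0.110 (SD, n = 4) in treated T-cell lines and 1.80 ± 0.0359 in untreated ALCL lines. The 3' minus 5' signal of ACTB was 0.103 ± 0.355 against -0.484 ± 0.161, and a 28S ribosomal RNA control was 10.42 ± 1.52 against 8.29 ± 0.179. That control stood at 11.68 in Molt-3 and 11.78 in Molt-4 but at 8.98 in CCRF-CEM and 9.24 in Jurkat. The 3' minus 5' signal of GAPDH was 0.282 ± 0.155 against 0.00478 ± 0.0301. For these 4 measures the exact permutation p was 0.0286, the smallest that 4 against 4 allows (adjusted p = 0.05 over 7 measures). Untreated T-cell lines had an SD of 1.82 to 1.87, an ACTB signal of -0.593 to -0.337 and 8.24 to 8.63 for that 28S control. The hybridisation spikes averaged 9.778 ± 0.612 against 8.755 ± 0.666 (exact permutation p = 0.114). A second 28S control overlapped between the groups, at 6.85 ± 1.01 against 6.05 ± 0.237 (exact permutation p = 0.286), and read 5.75 in CCRF-CEM, below every ALCL array. Among the third of genes with the lowest mean level 298 were called higher and 88 lower, and among the third with the highest level 317 were higher and 686 lower. The part of these array measures in the results below was not tested.

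The promoters of the genes that carry the comparison are shown first, as the 250 bases before the RefSeq start site (build GRCh38.p14) of genes with 1 listed start. The first set holds genes much higher in the treated T-cell lines, and capitals mark every CG. The 3 promoters differ in CG content, with 15 in MAGEA6, 3 in SSX1 and 0 in DHRS2.
MAGEA6 (chrX:152769690-152769939, minus strand): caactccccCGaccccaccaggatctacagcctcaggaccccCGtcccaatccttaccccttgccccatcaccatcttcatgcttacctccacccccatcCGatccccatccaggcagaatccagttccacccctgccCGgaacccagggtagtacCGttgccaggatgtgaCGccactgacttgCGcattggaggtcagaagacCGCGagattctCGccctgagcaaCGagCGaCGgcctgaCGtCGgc
SSX1 (chrX:48255142-48255391, plus strand): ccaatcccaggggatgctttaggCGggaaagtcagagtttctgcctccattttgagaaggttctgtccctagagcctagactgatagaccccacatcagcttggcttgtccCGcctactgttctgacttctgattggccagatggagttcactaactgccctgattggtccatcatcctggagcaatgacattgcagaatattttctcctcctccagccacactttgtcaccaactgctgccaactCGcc
DHRS2 (chr14:23629865-23630114, plus strand): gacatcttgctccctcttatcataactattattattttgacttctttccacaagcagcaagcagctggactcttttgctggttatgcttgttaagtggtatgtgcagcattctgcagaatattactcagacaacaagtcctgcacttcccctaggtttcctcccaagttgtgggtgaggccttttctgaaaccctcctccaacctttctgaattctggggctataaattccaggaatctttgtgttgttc

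The second set sets ID2, whose level in treated T-cell lines overlapped that in ALCL lines, beside GZMB and IL26, ALCL genes that stayed far lower. Capitals again mark CG, of which there were 29 in ID2, 1 in GZMB and 3 in IL26.
ID2 (chr2:8681806-8682055, plus strand): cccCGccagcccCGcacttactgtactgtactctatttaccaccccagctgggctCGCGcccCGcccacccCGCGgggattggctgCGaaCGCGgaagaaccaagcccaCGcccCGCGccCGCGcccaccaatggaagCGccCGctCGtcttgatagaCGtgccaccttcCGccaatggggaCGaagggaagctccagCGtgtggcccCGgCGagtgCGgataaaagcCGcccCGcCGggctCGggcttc
GZMB (chr14:24634191-24634440, minus strand): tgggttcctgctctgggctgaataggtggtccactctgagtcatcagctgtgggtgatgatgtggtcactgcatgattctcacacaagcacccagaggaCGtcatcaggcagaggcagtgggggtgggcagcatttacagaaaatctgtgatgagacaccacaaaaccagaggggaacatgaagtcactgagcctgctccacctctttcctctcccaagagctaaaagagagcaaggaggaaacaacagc
IL26 (chr12:68225811-68226060, minus strand): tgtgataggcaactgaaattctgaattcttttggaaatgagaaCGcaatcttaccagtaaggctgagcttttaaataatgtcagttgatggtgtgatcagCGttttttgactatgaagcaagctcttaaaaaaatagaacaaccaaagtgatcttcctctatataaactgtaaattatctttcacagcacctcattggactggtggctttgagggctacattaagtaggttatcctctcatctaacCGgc

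The third set holds interferon-responsive genes that were lower in treated T-cell lines. Capitals mark matches to GAAANNGAAA on either strand (TTTCNNTTTC on the opposite strand), the core of an interferon-stimulated response element. NMI and PSMB10 each had 1 match, 163 and 21 bases before the start, and PSMB9 had none in this window.
NMI (chr2:151289669-151289918, minus strand): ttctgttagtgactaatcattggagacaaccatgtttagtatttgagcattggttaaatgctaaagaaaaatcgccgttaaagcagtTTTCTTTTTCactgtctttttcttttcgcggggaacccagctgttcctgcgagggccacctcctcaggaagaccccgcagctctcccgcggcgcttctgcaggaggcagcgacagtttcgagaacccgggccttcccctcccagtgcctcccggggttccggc
PSMB9 (chr6:32853942-32854191, plus strand): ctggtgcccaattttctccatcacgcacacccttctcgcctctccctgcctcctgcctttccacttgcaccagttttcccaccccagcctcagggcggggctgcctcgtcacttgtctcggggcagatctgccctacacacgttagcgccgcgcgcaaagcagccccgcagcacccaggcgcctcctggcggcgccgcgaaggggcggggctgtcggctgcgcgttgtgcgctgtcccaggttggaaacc
PSMB10 (chr16:67936851-67937100, minus strand): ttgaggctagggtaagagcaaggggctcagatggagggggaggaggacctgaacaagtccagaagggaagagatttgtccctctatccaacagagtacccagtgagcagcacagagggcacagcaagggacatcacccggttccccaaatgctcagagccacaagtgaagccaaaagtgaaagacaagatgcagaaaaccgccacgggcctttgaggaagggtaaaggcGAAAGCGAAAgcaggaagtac

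Over 300-base promoters (250 before to 50 after the start, mean over a gene's listed starts), the median CG count was 23 in the 9563 genes with an entry. It was 25 in genes called higher, 25 in genes called lower and 23 in genes not called. GAAANNGAAA stood in 4.13% of all these promoters, in 12% of those of genes called at least 4-fold lower (18 of 150) and in 3.08% of those called at least 4-fold higher (2 of 65). TTCNNNGAA, the core of a STAT site, which reads the same on both strands, stood in 9.18%, 16% and 7.69% respectively. At looser cutoffs the shares were nearer to those of all genes. Among all genes called lower and called higher, GAAANNGAAA stood in 4.60% and 4.03%, and TTCNNNGAA in 10.2% and 8.64%. Among genes called at least 2-fold lower and higher, GAAANNGAAA stood in 4.74% and 4.53%, and TTCNNNGAA in 10.6% and 7.93%. In the list of interferon-stimulated genes GAAANNGAAA was present in 19 of 27 promoters. These are matches of letters and no test was made on them.

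Genes that define ALCL were far lower in treated T-cell lines. Of 32 measured ALCL-associated genes, 21 were called lower and 0 higher, with a median of -2.15 ± 0.331 (SD over 4 T-cell lines) beside 0.09 for all genes. In untreated T-cell lines 24 were lower and 0 higher, with a median of -2.55 against the same ALCL arrays. By calls 9 members rose and 3 fell with treatment, beside 21.7% and 20.2% of all genes. GZMB, the granule protease that triggers apoptosis in target cells, read 5.54, 5.20, 5.41 and 5.31 in the 4 treated T-cell lines. In the 4 untreated ALCL lines it read 10.74, 12.80, 11.95 and 11.32. The groups lie far apart, and the untreated T-cell lines had read 4.66 to 5.55. GZMB was 80.9-fold lower (log2 difference -6.34 ± 0.38, limma adjusted p = 4.6e-05).

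PRF1, which forms the pore through which granzymes enter cells, read 7.13 to 7.61 in treated T-cell lines and 12.01 to 13.40 in ALCL lines, a difference of -5.40 ± 0.28 (limma adjusted p = 3.9e-05). Its level rose with treatment in T-cell lines by 0.72 (limma adjusted p = 0.023) and remained 42.2-fold below ALCL. SRGN, the proteoglycan that packs granules, was 8.84-fold lower. Of 15 cytotoxic granule genes 5 were called lower and 0 higher, with a median of -0.38 that was -0.17 without FE-PD, -0.64 without JB6 and -0.60 without Karpas 299. The untreated T-cell lines gave a median of -0.41 against the same ALCL arrays.

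TNFRSF8, the gene of CD30, read 7.09, 7.09, 7.21 and 7.14 in the treated T-cell lines and averaged 11.48 ± 0.531 (SD, n = 4) in the ALCL lines. All 4 treated values lay below the lowest ALCL value by more than 3 log2 units, and TNFRSF8 was 20.3-fold lower (-4.34 ± 0.24, limma adjusted p = 4.6e-05). ALK read 6.56 to 7.51 in treated T-cell lines, 6.39 in ALK-negative FE-PD and 10.00 to 11.10 in the other 3 ALCL lines. The groups overlap through FE-PD, and the difference of -2.67 (95% interval -4.72 to -0.62) was not called (limma adjusted p = 0.072).

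Secreted and signalling products of ALCL followed the same order. SERPINA1, the alpha-1 antitrypsin gene, was 73.2-fold lower and IL1R2, the decoy receptor for interleukin 1, 33.5-fold lower. SERPINA1 has 3 probe sets, of which 1 differed by 0.28 in the opposite direction. CLU, the chaperone clusterin, read 8.82 and 8.13 in treated CCRF-CEM and Jurkat, 6.31 and 6.10 in Molt-3 and Molt-4, and averaged 12.55 ± 0.548 (SD, n = 4) in ALCL lines. It rose with treatment by 1.53 (limma adjusted p = 0.01) and was still 37.1-fold lower than in ALCL, the differences of its 3 probe sets running from -5.21 to -2.16. TIMP1, an inhibitor of matrix metalloproteinases, was 27.7-fold lower and IL26, a cytokine of the interleukin 10 family, 23.6-fold lower. IL26 read 3.77 to 3.88 in every treated T-cell line.

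Of 32 cytokine receptor and JAK-STAT genes, 12 were lower and 1 higher, with a median of -0.78. IL2RA, the high-affinity interleukin 2 receptor chain, was 18.4-fold lower (-4.21 ± 0.34) and IL2RB 12.3-fold lower (-3.62 ± 0.34). SOCS1, the feedback inhibitor of JAK kinases, was 11.7-fold lower. Among AP-1 and immediate early genes 5 of 24 were lower and 6 higher, with a median of -0.23 that turned to 0.03 with CCRF-CEM and Jurkat alone. That median was -0.03 without SU-DHL-1, -0.09 without FE-PD, -0.10 without Molt-4 and -0.15 without Molt-3. BATF3 (14.6-fold) and JUNB (7.93-fold), transcription factors strongly expressed in ALCL, were lower in treated T-cell lines, whereas IER3, an early response gene, was 2.70-fold higher. JUN read 7.88 to 9.41 in treated T-cell lines and 8.18 to 9.55 in ALCL lines. Those ranges overlap, and the difference of -0.35 (95% interval -1.31 to 0.60) was not called, while the untreated lines had stood at -2.27 (limma adjusted p = 0.016).

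**Figure D2:**
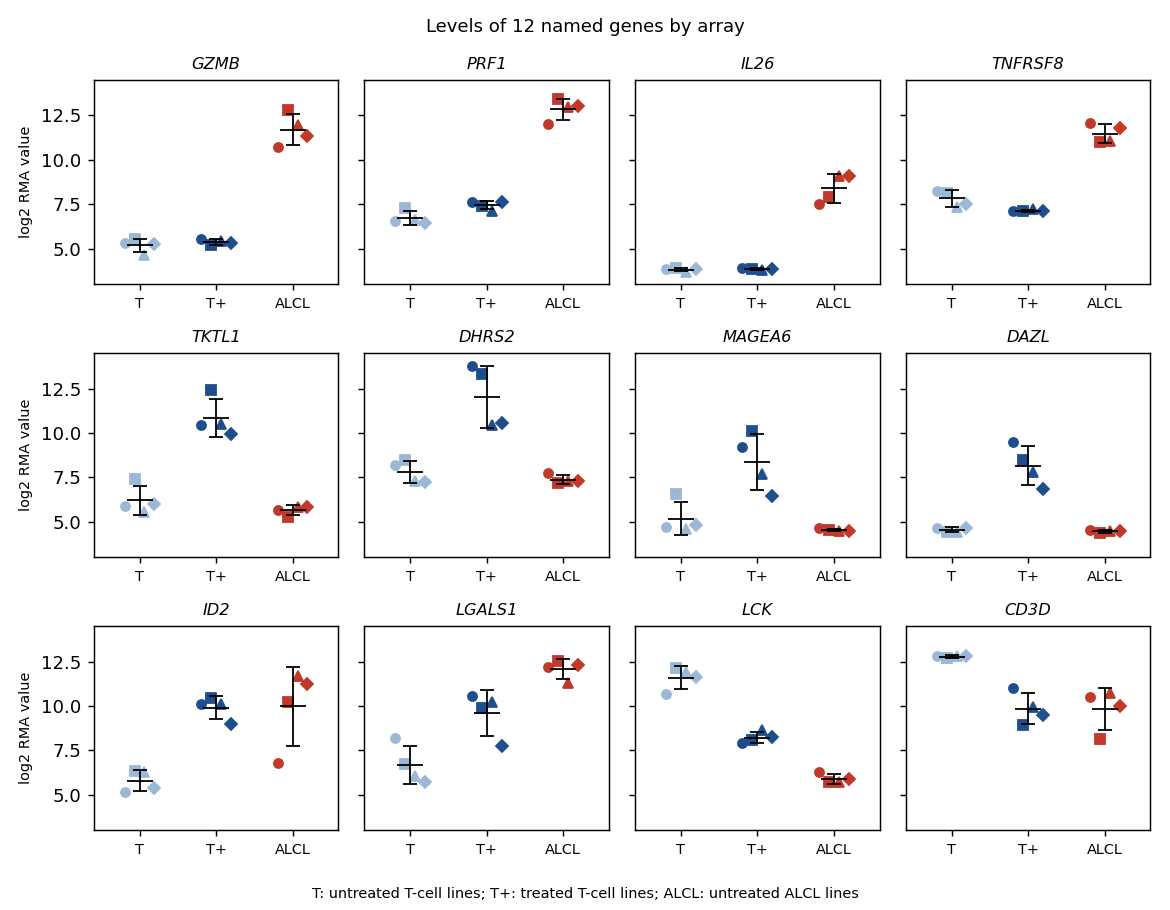
Log2 RMA value (y axis) of 12 genes in untreated T-cell lines (T), treated T-cell lines (T+) and untreated ALCL lines (ALCL), with 1 point per array and bars for the mean and SD (n = 4). Circle, square, triangle and diamond stand for CCRF-CEM, Jurkat, Molt-3, then Molt-4 among T-cell lines and for FE-PD, JB6, SU-DHL-1, then Karpas 299 among ALCL lines. GZMB, PRF1, IL26 and TNFRSF8 stayed low in T+, and ID2 and CD3D overlapped ALCL. ID2, LGALS1, LCK and CD3D were among genes picked because their gap to ALCL shrank, and TKTL1, DHRS2, MAGEA6 and DAZL because it grew.

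A second group was higher in treated T-cell lines than in ALCL lines. TKTL1, a transketolase-like gene, read 10.46, 12.43, 10.51 and 9.96 in the 4 treated T-cell lines and 5.27 to 5.85 in ALCL lines. Every treated value lay above every ALCL value, by at least 4 log2 units, and TKTL1 was 36.3-fold higher (5.18 ± 0.47, limma adjusted p = 0.00031). DHRS2, a short-chain dehydrogenase that responds to histone deacetylase inhibitors, was 24.9-fold higher, with 13.76 and 13.29 in CCRF-CEM and Jurkat and 10.45 and 10.55 in the Molt lines. Before treatment neither TKTL1 (0.54, limma adjusted p = 0.41) nor DHRS2 (0.42, limma adjusted p = 0.42) was called. Both, like MAGEA6, SSX1, DAZL and TUBB2A below, were among the 10 genes picked because their gap to ALCL grew most. That growth is therefore not a test of them. When ALCL lines were treated the same way, TKTL1 rose by 4.90 and DHRS2 by 4.20 in them as well.

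Cancer-testis antigens, germ-cell genes silenced by methylation in most tissues, had 14 of 21 measured members called higher and 0 lower. Their median was 0.92 ± 0.204 (SD over 4 T-cell lines), and -0.10 after spike centring, against a median of -0.03 before treatment. MAGEA6 read 9.20, 10.08, 7.69 and 6.47 in the 4 treated lines and 4.48 to 4.64 in ALCL lines. It was 14.2-fold higher (3.83 ± 0.66, limma adjusted p = 0.0059), and the lowest treated value was that of Molt-4. SSX1 was 9.73-fold and MAGEA12 13.8-fold higher, although MAGEA12 already read 10.08 in untreated Jurkat. SSX1 has 2 probe sets, and the one not used differed by 0.46 against 3.28. The probe sets used for MAGEA6, MAGEA12 and SSX1 have names ending in _x_at. Whether they also detect related family members was not tested. DAZL, a germ-cell RNA-binding protein, read 6.85 to 9.50 in treated T-cell lines and 4.37 to 4.54 in ALCL lines. All 4 treated lines were above ALCL, DAZL being 12.97-fold higher (3.70 ± 0.47, limma adjusted p = 0.0014).

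Germline genes had 4 of 25 members called higher and 0 lower (median 0.50, and -0.52 after spike centring), beside 8.82% of all genes called higher and 9.09% lower. Neuronal genes had 7 of 39 called higher and 0 lower, with a median of 0.32 (-0.71 after spike centring); NPTX2, a pentraxin of synapses, was 5.89-fold higher. The share of germline and neuronal genes called in either direction was close to the 17.9% of all genes. Histone genes had 13 of 39 called higher and 0 lower, with a median of 0.62 ± 0.370 (-0.41 after spike centring). H1-2, a linker histone, read 11.70 and 11.91 in CCRF-CEM and Jurkat, 9.95 and 8.70 in Molt-3 and Molt-4, and 7.41 to 8.23 in ALCL lines. Treated CCRF-CEM and Jurkat lay well above the Molt lines, and H1-2 was 6.83-fold higher (limma adjusted p = 0.021). Metallothioneins, which bind zinc and copper, had a higher median difference in CCRF-CEM and Jurkat (2.74 and 2.17) than in Molt-3 and Molt-4 (0.55 and 0.56). MT1G read 13 and 12.86 in CCRF-CEM and Jurkat but 10.91 and 10.51 in Molt-3 and Molt-4, and averaged 11.82 ± 1.29 (SD, n = 4). It was 4.13-fold higher than in ALCL lines. Of 9 metallothioneins 2 (22.2%) were called, beside 17.9% of all genes.

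Some genes were higher in treated T-cell lines and had been so before treatment. IGFBP2, which binds insulin-like growth factors, was 17.2-fold higher than in ALCL lines after treatment and differed by 5.04 on the log2 scale before it. ITM2A, a thymocyte membrane protein, was 11.2-fold and PRKCB, a lymphocyte protein kinase, 11.4-fold higher. The differences of the 2 ITM2A probe sets were 3.49 and 6.07. Of the 7 imprinted genes called higher among 16 measured (median 0.76, but 0.24 without SU-DHL-1 and -0.27 after spike centring), NDN stood 2.73 above ALCL before treatment and 2.68 after. PEG10 stood 0.00 above before and 1.66 after.

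T-cell receptor genes stood nearer to ALCL levels after treatment than before it, and 17 of 24 measured members fell and 0 rose with treatment. Over all genes tested 2417 (20.2%) fell and 2601 (21.7%) rose with treatment, and after spike centring 2943 fell and 63 rose. Of these 24, 6 were called higher and 2 lower in treated T-cell lines, with a median of 0.31 (0.17 without Molt-3 and -0.71 after spike centring), against 16 higher and a median of 1.81 in untreated T-cell lines. Those starting differences belong to a comparison that called 1048 genes (8.76%) and uses the same 4 ALCL arrays. LCK, the kinase that starts receptor signalling, read 7.92, 8.10, 8.63 and 8.24 in treated T-cell lines, 5.71 to 6.29 in ALCL lines and 10.70 to 12.12 in untreated T-cell lines. The treated values lay between the other groups and overlapped neither, and LCK was 5.00-fold higher than in ALCL (2.32 ± 0.20, limma adjusted p = 0.00022). Its other probe set differed by 1.05. CD3E, a chain of the receptor complex, was 2.76-fold higher. LCK and CD3D, the chain described next, were among the 10 genes picked because their gap to ALCL shrank most. Their nearness to ALCL after treatment follows from that rule and is not a test of it.

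CD3D, another chain, read 11.01, 8.95, 9.97 and 9.49 in treated T-cell lines and 10.49, 8.15, 10.75 and 10.03 in ALCL lines. The ranges overlap, with a difference of 0.00 whose 95% interval ran from -1.38 to 1.39, which still holds differences of more than 2-fold either way. PTPN22, a phosphatase that restrains receptor signalling, was 2.22-fold lower than in ALCL lines and VAV1, an exchange factor downstream of the receptor, 1.86-fold lower. Both had fallen with treatment in the T-cell lines, in a comparison that called 5018 genes (41.9%) with the same treated arrays.

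ID2, an inhibitor of E proteins, rose from 5.18 to 6.34 in untreated to 10.10, 10.45, 10.09 and 8.97 in the 4 treated T-cell lines. ALCL lines read 6.79 in FE-PD and 10.21 to 11.72 in the other 3. Treated T-cell lines thus overlapped the ALCL range, with a difference of -0.09 ± 0.96 (95% interval -2.26 to 2.08, limma adjusted p = 0.95). The other ID2 probe set differed by -0.86. Leaving out 1 array at a time gave differences of -1.16 to 0.49 for the one used. Before treatment ID2 had differed by -4.20. LGALS1, the galectin-1 gene, moved the same way and was still 5.58-fold lower after treatment (-2.48 ± 0.58, limma adjusted p = 0.021), from a difference of -5.40. The rule that picked the 10 genes whose gap to ALCL shrank most used these 2 differences and is not a test of them.

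T-lineage transcription factors had 3 of 26 called higher and 1 lower, a share close to the 17.9% of all genes, so its members are described singly. GATA3 was 6.61-fold higher in treated T-cell lines (2.72, with 0.97 from the lowest of its 3 probe sets). BCL11B was 2.32-fold higher (limma adjusted p = 0.042), but the groups overlapped, with 5.93 in treated CCRF-CEM and 6.06 in FE-PD. Before treatment BCL11B had stood 15.6-fold above ALCL. IKZF1, the gene of Ikaros, was 3.47-fold lower in treated T-cell lines. IKZF1 read 7.66 to 8.43 in treated T-cell lines and 9.50 to 10.24 in ALCL lines. In the untreated T-cell lines it had read 9.71 to 10.39, inside or just above the ALCL range. MYC, the growth regulator, showed a like pattern, with 6.33 to 7.08 in treated T-cell lines, 9.04 to 10.62 in ALCL lines and 10.42 to 11.06 in untreated T-cell lines. It was 9.72-fold lower in treated T-cell lines than in ALCL lines (limma adjusted p = 0.00059).

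Several genes of antigen processing and interferon response were lower in treated T-cell lines than in ALCL lines. Of 18 MHC class I and antigen processing genes 9 were called lower and 1 higher, with a median of -1.43 ± 0.190 (SD over 4 T-cell lines) against -0.56 before treatment. The median treatment change of the members was only -0.13. By calls 7 of them fell and 1 rose, beside 20.2% and 21.7% of all genes. PSMB8, a catalytic subunit of the immunoproteasome, read 7.60, 6.80, 6.82 and 7.13 in treated T-cell lines. It read 10.23 to 10.86 in ALCL lines and 10.22 to 10.77 in untreated T-cell lines. Treated values were below all others, and PSMB8 was 11.2-fold lower (-3.49 ± 0.23, limma adjusted p = 6.5e-05) from a starting difference of -0.18. PSMB8, PSMB10, IFI16 and NMI were among the 10 genes picked because their gap to ALCL grew most. A small start beside a large later difference follows from that rule and is not a test of them.

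PSMB10, another inducible subunit, was 10.6-fold lower (-3.41 ± 0.23) from a start of -0.03, and PSMB9 was 6.02-fold lower from -0.75. TAPBP, tapasin, which loads peptide on class I, was 7.63-fold lower. Among interferon-stimulated genes 10 of 36 were lower, 3 higher and 23 not called, with a median of -0.30 after treatment and -0.23 before it. That median was -0.05 without Karpas 299. IFI16, a DNA sensor, read 7.44, 6.78, 6.97 and 6.42 in treated T-cell lines, 11.15 to 11.83 in ALCL lines and 10.62 to 11.08 in untreated T-cell lines. Treated values lay more than 3 log2 units below the other groups, and IFI16 was 22.7-fold lower than in ALCL (-4.50 ± 0.24, limma adjusted p = 3.9e-05). NMI, an interactor of STAT proteins that is not in that list, was 14.38-fold lower from a start of -0.06. IFIT5 went the other way and was 3.26-fold higher.

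These genes also fell when the ALCL lines themselves were treated. The change from untreated to treated ALCL lines was -1.29 for IFI16, -2.42 for NMI, -2.11 for PSMB8 and -2.72 for PSMB10. The difference between these falls and those in T-cell lines was not tested.

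**Figure D3:**
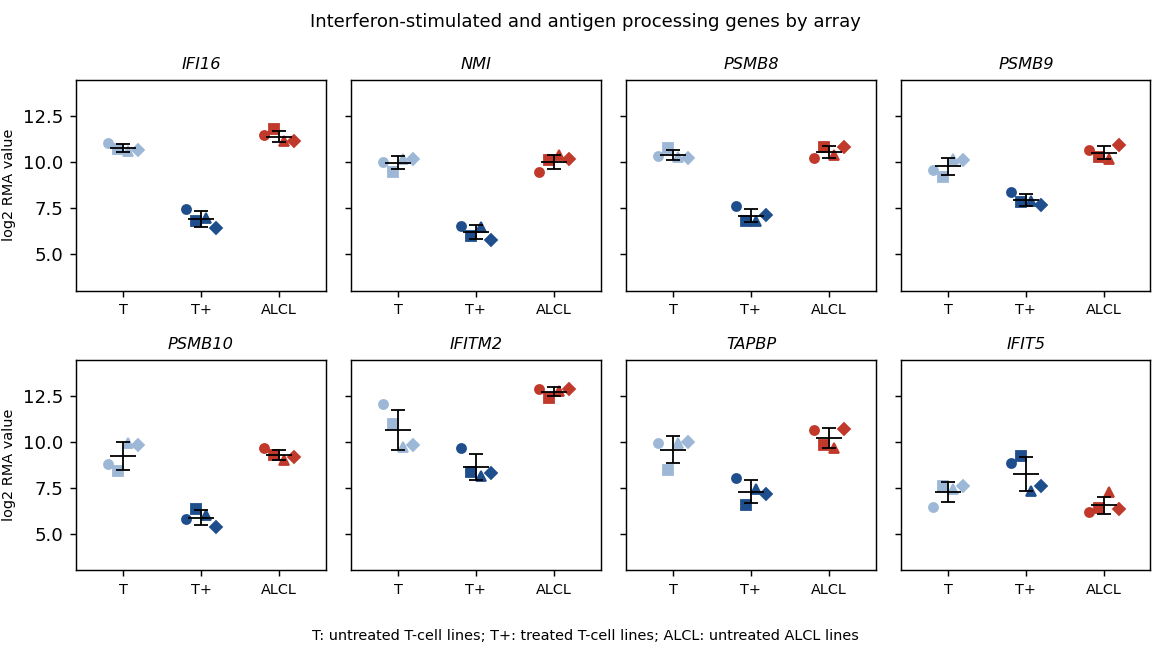
Log2 RMA value (y axis) of 8 interferon-stimulated and antigen processing genes in untreated T-cell lines (T), treated T-cell lines (T+) and untreated ALCL lines (ALCL), with 1 point per array and bars for the mean and SD (n = 4). IFI16, NMI, PSMB8 and PSMB10, picked because their gap to ALCL grew, were high in T and in ALCL and far lower in T+. IFIT5 was higher in T+ than in ALCL.

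MHC class II genes, which present peptide to CD4+ T cells, had 3 of 17 called lower and 0 higher. That share (17.65%) was close to the 17.9% of all genes called. Their median was -2.22, and -1.15 without Karpas 299. The ALCL lines themselves disagreed: CD74, the invariant chain, read 13.19, 12.56 and 13.94 in FE-PD, JB6 and Karpas 299 and 6.37 in SU-DHL-1. In treated T-cell lines CD74 averaged 6.96 ± 0.058 (SD, n = 4), and the difference of -4.55 was not called (limma adjusted p = 0.058). HLA-DPA1 showed the same split, with 6.38 in SU-DHL-1 and 11.69 to 13.18 in the other 3.

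Of 50 cell cycle genes 4 were called lower and 0 higher (median -0.46 ± 0.520, from 0.69 before treatment), a share near the 9.09% of all genes called lower. Of 45 DNA replication genes 16 were lower and 2 higher (median -0.52 from 0.30). CCRF-CEM differed from the rest in cell cycle genes, with a median of 0.25 against -0.56, -0.54 and -1.002 in the other 3 lines. AURKA, a mitotic kinase, read 9.47 in treated CCRF-CEM and 7.17 to 7.60 in the other treated lines, against 9.04 to 10.29 in ALCL lines. NCAPH, a condensin subunit, was 2.49-fold lower in treated T-cell lines. CDK4, which drives entry into S phase, belongs to the list of CDK inhibitors, p53 targets and D cyclins. In that list 2 of 24 were called higher and 2 lower (16.67%), close to the 17.9% of all genes. CDK4 was 2.43-fold and CDKN2A 3.64-fold lower, whereas CDKN1C was 2.78-fold and SESN1 2.29-fold higher.

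Of 25 BCL2 family and caspase genes 7 were lower and 3 higher; CFLAR, an inhibitor of caspase 8 activation, was 5.19-fold lower and CASP8 2.96-fold lower. PTPRC, the gene of CD45, read 7.56, 6.89, 7.87 and 7.45 in treated T-cell lines and 8.96 to 10.49 in ALCL lines. Of 19 lymphocyte phosphatase and GIMAP genes, the list that holds PTPRC, 5 were lower, 1 higher (DUSP10, 2.36-fold) and 13 not called. The PTPRC values of the groups did not overlap, and PTPRC was 6.21-fold lower, with PTPRCAP, its associated protein, 7.15-fold lower.

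Annexins, S100 proteins and galectins had 9 of 23 members lower and 1 higher. Their median was -1.49, and -0.38 for untreated T-cell lines against the same ALCL arrays. The typical member did not fall with treatment: the median treatment change was 0.10. By calls 7 members fell and 3 rose, beside 20.2% and 21.7% of all genes. S100A11, a calcium-binding protein, read 5.56 to 7.97 in treated T-cell lines and 10.61 to 11.80 in ALCL lines. ANXA1, annexin A1, was 7.30-fold lower after treatment from a starting difference of 0.28. Of 28 hypoxia and glycolysis genes 9 were lower and 1 higher, with ENO1, enolase, 3.33-fold and GPI, glucose phosphate isomerase, 4.24-fold lower.

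**Figure D4:**
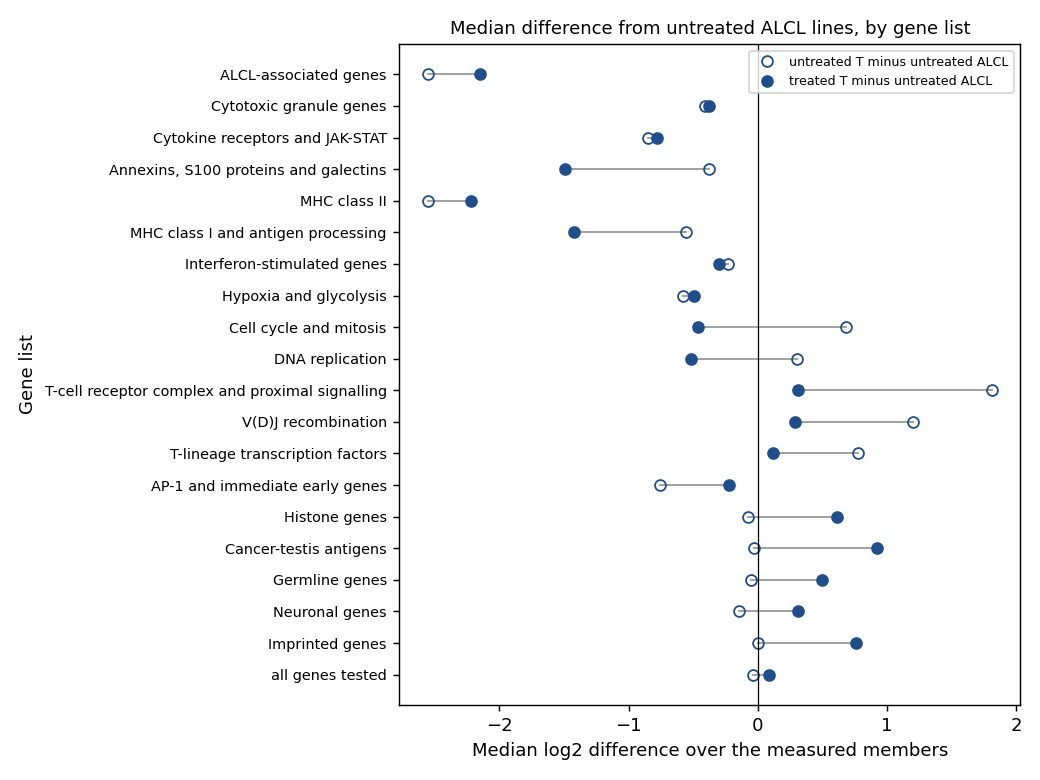
Median log2 difference from untreated ALCL lines (x axis) over the measured members of 19 gene lists and all genes tested (y axis). Open circles are untreated and filled circles treated T-cell lines, both against the same 4 ALCL arrays. T-cell receptor genes went from 1.81 to 0.31 and MHC class I genes from -0.56 to -1.43, while cytotoxic granule genes stood at -0.41 and -0.38. A shift between circles is not the median change of the members, which was -0.13 for MHC class I genes. After spike centring the medians of T-cell receptor, V(D)J, T-lineage factor, histone, cancer-testis, germline, neuronal and imprinted genes in treated lines were below 0.

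Markers of other cell types are given beside the 17.9% of all genes called. Among B-cell markers 3 of 21 were called higher, among myeloid markers 3 of 25 higher and 1 lower, and among NK-cell markers 1 of 15 higher. The 4 myeloid markers called were CSF1R, the myeloid growth factor receptor, 4.13-fold lower, and AIF1 (2.65-fold), CEBPA (1.71-fold) and MRC1 (1.68-fold), all 3 higher, of which CEBPA and MRC1 turned to -0.25 and -0.27 on the log2 scale after spike centring. Epithelial genes had 2 of 20 higher and 1 lower.

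Across all genes, the treated T-cell arrays were on average no closer to the ALCL arrays than the untreated ones. The root mean square log2 difference of a T-cell array from the 4 untreated ALCL arrays was 0.876, 0.897, 0.896 and 0.963 in the 4 treated lines. The untreated arrays of the same lines read 0.814, 0.878, 0.875 and 0.865. On this mean over the 4 ALCL arrays, all 4 lines were farther after treatment and 0 closer, by 0.0497 ± 0.0374 (SD, n = 4 lines). The 4 lines include Molt-3 and Molt-4 of the same patient. In single pairs treated Jurkat was closer to FE-PD (0.8629 from 0.8688). Treated Molt-3 was closer to FE-PD (0.835 from 0.8702) and to Karpas 299 (0.8936 from 0.9055). Every other pair was farther after treatment. The exact sign-flip test gave p = 0.125, two-sided, which is the smallest p that 4 lines allow, so this design cannot pass a threshold of 0.05. Pairs of untreated ALCL lines differed from each other by 0.582 to 0.756.

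**Figure D5:**
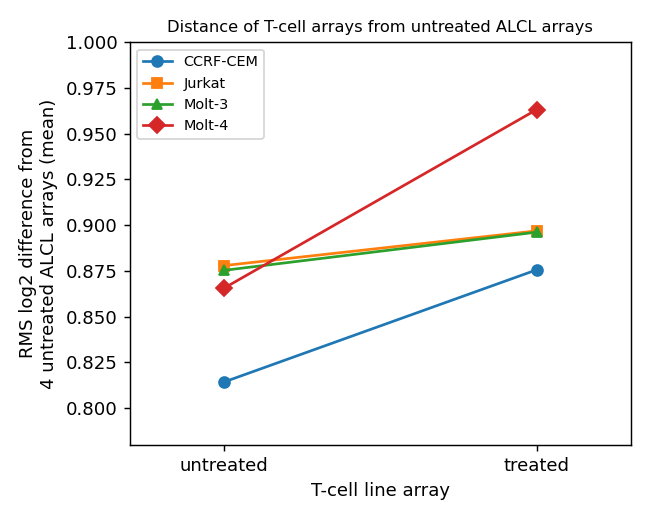
Root mean square log2 difference of each T-cell array from the 4 untreated ALCL arrays (y axis, mean over the 4), before and after treatment (x axis), with 1 line per T-cell line. The axis does not start at 0. All 4 lines lie higher after treatment, with Molt-4 going from 0.865 to 0.963.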

How the data were processed

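RNA of 8 cell lines, each untreated and treated, was hybridised to 1-colour Affymetrix HG-U133A arrays. The deposited log2 expression values were made by the authors with RMA (R 2.10.1; both per the submitters' processing notes); how arrays were normalized together is not given in the sources used here, and scanner files were not used here. Of 22283 probe sets, 19065 had 1 gene symbol in the platform annotation, 1043 several and 2107 none, and 68 were controls. Each of 11963 genes was read by its brightest probe set (mean over 16 arrays); 4310 had several, and symbols were updated through RefSeq (11954 found).

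Groups came from the labels. Differences were tested with limma 3.58.1 in R 4.3.3, two-sided, on the 8 arrays of a comparison, and the treatment change on all 16 arrays, blocked by line. Adjusted p values are Benjamini-Hochberg over all genes, and 95% intervals come from the same fit. Single values were tested by exact permutation. The scripts were tested on simulated data. The number of arrays, 1 per line, limits the precision.

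Members, the 42 gene lists and tests were chosen with earlier results of these data known. Genes are named by rule: the 12 highest and 12 lowest called genes without overlap, up to 4 called members with the smallest adjusted p and the extremes of each list, the 10 genes whose gap to ALCL shrank and the 10 whose gap grew most, and a list of genes from this field. The promoters shown, of genes with 1 RefSeq start, were chosen after their values were seen. Lists have counts and medians only, with no set test.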

Additional observations from a re-analysis of the deposited data

Results flagged for a closer look

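In 7 of 120 groups of 4 lines, 1 line stood apart from the other 3, with a gap to its nearest neighbour that took more of the group's whole range than Dixon's 95% critical value for 4 samples; chance gives this in about 1 in 20 groups.

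COTL1, an actin-binding protein, was set apart in both groups. Among treated T-cell lines Jurkat read 10.3 against 8.84 to 9.04 in the rest (gap share 0.866), and among untreated ALCL lines FE-PD read 8.44 against 4.94 to 5.05 (0.968). SU-DHL-1 stood below the other ALCL lines for ZAP70, the kinase that binds the T-cell receptor (5.17 against 7.49 to 7.69, gap share 0.919). It was also lowest for ADA, adenosine deaminase (6.79 against 8.32 to 8.51, 0.887), and highest for SPP1, osteopontin (6.70 against 4.95 to 5.06, 0.939). JB6 was highest for IGLL1, a surrogate light chain (5.91 against 4.74 to 4.93, 0.836). JB6 also had the lowest mean of the hybridisation spikes, 7.76 against 8.98 to 9.19 (0.854).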

How the results depend on the processing

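The count of genes called between treated T-cell and untreated ALCL lines (2143) became 4366 with array weights, 1443 with Molt-3 and Molt-4 averaged and 911 with CCRF-CEM and Jurkat only. It was 777 without FE-PD and both Molt lines, an alternative chosen after seeing the data. Leaving out 1 array at a time gave 1234 to 2102. The count for untreated T-cell lines (1048) became 472 with Molt-3 and Molt-4 averaged and 455 to 1195 leaving out 1 array, the lowest without Molt-3 and 476 without Molt-4. The treatment count (5018) became 3006 with spike centring, 3642 with no cell line as replicate block, and 2520 to 4525 leaving out 1 line, the lowest without Molt-3 and 2572 without Molt-4. No paired analysis was possible because the 8 arrays of the main comparison are of 8 different lines. The change in distance (0.0497) became 0.093 with quantile normalization and 0.0879 with median centring and SD scaling, with 0 of 4 lines closer under each.

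Of 167 named genes called, 106 stayed called with spike centring, 119 with CCRF-CEM and Jurkat only, 141 with Molt-3 and Molt-4 averaged, 107 without FE-PD and both Molt lines, and 132 to 149 leaving out 1 array. Spike centring lowered the median of all genes to -0.93 and turned 21 of the 167 negative: CD1B -0.11, CD8A -0.39, DCLRE1C -0.51, JAG2 -0.16, HEY1 -0.41, IL10RA -0.33, TEX15 -0.23, SPAG6 -0.64, H2BC17 -0.07, FN1 -0.16, COL5A2 -0.45, DSP -0.02, CR2 -0.04, BTK -0.40, CEBPA -0.25, MRC1 -0.27, NCR3 -0.34, EPB42 -0.32, ITGB3 -0.50, TRDMT1 -0.54 and TIMP3 -0.25. No other alternative turned the sign of a called named gene. The same centring turned list medians negative: T-cell receptor -0.71, T-cell surface markers -0.72, V(D)J recombination -0.73, T-lineage factors -0.91, protease inhibitors -0.70, cancer-testis antigens -0.10, germline -0.52, neuronal -0.71, histone -0.41, mesenchymal -0.86, B-cell -0.84, NK-cell -0.83, erythroid and megakaryocyte -0.88, histone deacetylases and acetyltransferases -0.78 and imprinted genes -0.27. The mesenchymal median was -0.09 with SD scaling. The AP-1 median became 0.03 with CCRF-CEM and Jurkat only and 0.03 without FE-PD and both Molt lines, where the cholesterol synthesis median became 0.14. The BCL2 family and caspase median ran from -0.35 to 0.03 leaving out 1 array. The cause of these shifts was not tested.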

Other observations

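Genes of cholesterol and fatty acid synthesis were split, with 3 of 20 measured called higher and 4 lower in treated T-cell lines. LSS, lanosterol synthase, was 4.48-fold and SQLE, squalene epoxidase, 3.35-fold higher, whereas FDPS, farnesyl diphosphate synthase, was 3.37-fold and FASN, fatty acid synthase, 3.64-fold lower. Among genes of the enzymes that the agents act on, DNMT1 read 8.22 to 9.58 in treated T-cell lines and 8.93 to 9.45 in ALCL lines. Of 14 DNA methylation genes 2 were called higher and 1 lower (21.43%). Of 27 histone deacetylases and acetyltransferases 3 were higher and 2 lower (18.52%). Both shares were near the 17.9% of all genes. DNMT3B, a de novo methyltransferase, was 4.20-fold higher in treated T-cell lines and MBD2, a methyl-CpG binder, 3.11-fold lower. HDAC4 was 3.84-fold lower, whereas HDAC6 was 2.18-fold and SIRT7 2.08-fold higher. Among tubulin and cytoskeleton genes 6 of 30 were higher and 4 lower. TUBB2A, a beta tubulin, was 9.13-fold higher (limma adjusted p = 0.0011), with 12.01, 11.71, 10.99 and 10.44 in the 4 treated lines against 7.28 to 8.48 in ALCL lines. TPM4, a tropomyosin, was 6.21-fold lower.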
